A study of Drosophila melanogaster with 12 samples.

Results

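The accessible regions of the Drosophila X chromosome in early embryos are described here. Overlapping peaks of 12 ATAC-seq libraries were merged, and a merged region on X was a member when both replicates of at least 1 group had a peak in it. This gave 1680 X regions of 11280 replicated regions in the genome, set beside 9400 such regions on the 4 large autosomal arms (2L, 2R, 3L and 3R). A further 1505 merged regions on X were not members, of which 1131 had a peak in a single library, and their median width was 285 bp against 545.5 bp for the members.

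ATAC-seq marks DNA that a transposase can reach, and the lists hold only the chromosome, start and end of each peak. Whole Drosophila melanogaster embryos were compared in 6 groups of 2 libraries, each from a pool of hand-selected embryos. The mutant groups were M-Z+ HIRA mutant embryos at 0.5-1.5 h, M-Z+ HIRA mutant embryos at 2-3 h and M-Z+ dPCIF1 mutant embryos at 0.5-1.5 h after egg laying. M-Z+ stands for embryos that lack the product that the mother lays down and can carry a working zygotic copy. Since the Hira gene is X-linked, sons of HIRA mutant mothers would lack that copy. The mutant alleles were CRISPR/Cas9 nulls. Each mutant group had wild-type embryos of the same age as its control. These were wild type for HIRA at 0.5-1.5 h and at 2-3 h and wild type for dPCIF1 at 0.5-1.5 h. The sex of the pooled embryos, and with it the number of X copies in a pool, was not measured. The sources used here describe delayed or arrested nuclear divisions in many HIRA mutant embryos. A change at a given age and a change of developmental stage therefore cannot be told apart. The same sources name an established role of HIRA in forming the diploid zygote. Copies of X per autosome set in the HIRA mutant pools were not measured, so a change of X dose cannot be told apart either.

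HIRA deposits the replacement histone H3.3, in the fly also on the chromatin that the sperm brings in, and its gene is X-linked. dPCIF1 corresponds to PCIF1 of mammals, an enzyme that methylates mRNA caps. The sources used here report no signal of that cap mark in flies and describe dPCIF1 as a chromatin-associated protein. Female flies carry a pair of X chromosomes and males a single X, and the early embryo reads this dose through X-linked genes such as sisA, sc, upd1 and run, which act on the switch gene Sxl. GAGA factor (GAF) and Zelda are pioneer factors that open chromatin at their motifs around the start of zygotic transcription, while DREF and M1BP bind near the start sites of housekeeping genes.

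Stretches of 5 members are printed, each the widest that holds a searched motif among the 5 widest members of a class, to show what such regions look like. The classes were members absent from HIRA mutants of either age or from dPCIF1 mutants, members found in HIRA mutants at 2-3 h or in dPCIF1 mutants and not in their wild type, and members with a peak in all 12 libraries. Capitals mark the motif. The class of HIRA mutants at 2-3 h held none, and the class found in HIRA mutants at 0.5-1.5 h and not in their wild type was not drawn on for sequences. The letters searched, on either strand, were GAGAGAG for GAF, CAGGTAG for Zelda, TATCGAT for DREF and GGTCACACT for M1BP, with GAGAGAGA (which contains the GAF letters) and CACACACA as repeats. All are on the plus strand of dm6. In the first 4 the motif lies in an untranslated exon and a short stretch is shown, and the last lies wholly in other exon sequence.
alpha-Man-Ia, chrX:10325748-10325776, without a peak in HIRA mutants at 0.5-1.5 h, GAF and GA repeat: gtgtttgtgcGAGAGAGAGgggaatgcgc
CG4313, chrX:2042125-2042154, without a peak in HIRA mutants at 2-3 h, CA repeat: ctcgcgagCACACACACACACAggcacgtc
CG17159, chrX:23089625-23089654, without a peak in dPCIF1 mutants, CA repeat read on the minus strand: tggtctgcggaTGTGTGTGcgacttgaaca
CG4593, chrX:7013876-7013904, with a peak in dPCIF1 mutants and not in their wild type, M1BP: gacgtcgtctGGTCACACTgagccagagg
CG43736, chrX:6877790-6877989, with a peak in all 12 libraries, Zelda: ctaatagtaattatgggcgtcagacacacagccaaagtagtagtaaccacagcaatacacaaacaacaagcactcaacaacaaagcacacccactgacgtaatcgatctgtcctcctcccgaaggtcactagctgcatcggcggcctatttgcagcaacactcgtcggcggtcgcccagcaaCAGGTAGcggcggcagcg

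The members covered 1052.6 kb of the 23542271 bp of X and were 208 to 3014 bp wide. There were 71.4 members per Mb of X, against 86.2 replicated regions per Mb of the autosomal arms, whose median width was 557 bp. Of the members, 941 (56.0%) lay within 1 kb of a transcription start site and were called promoter regions, 409 had their midpoint in an intron, 184 in an exon and 146 between genes. The promoter share of the autosomal regions was 51.7%. A peak in all 12 libraries was found at 126 members (7.50%), against 5.82% of autosomal regions of like width, and a peak in only 2 libraries at 190 members (11.3%), against 12.2%.

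The libraries held 1505 to 11432 peaks genome-wide, with the fewest in HIRA mutants at 0.5-1.5 h (1505 and 2399) and the most in wild type for HIRA at 2-3 h (11432 and 9998). Since read depth is unknown, the numbers of X peaks were compared with the autosomal peaks of the same library. The study's methods call the replicates biological, but neither they nor the labels say whether these came from separate collections. By the same methods, more embryos were pooled per library at 0.5-1.5 h than at 2-3 h. Exact permutation p-values measure only the spread between these libraries. With 2 libraries against 2 the smallest possible p is 0.33, so no contrast between groups could pass 0.05.

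X held 313 and 490 peaks in HIRA mutants at 0.5-1.5 h, against 915 and 993 in their wild type. At 2-3 h it held 1993 and 1392 peaks in HIRA mutants, against 1659 and 1441 in their wild type. In dPCIF1 mutants it held 1151 and 1306 peaks, against 921 and 950 in their wild type. X peaks were therefore fewer in both early HIRA mutant libraries than in either control, more in both dPCIF1 mutant libraries than in either control, and overlapping between the groups at 2-3 h.

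Set against the autosomes, X differed between the groups in another way. The log2 ratio of peaks per Mb of X to peaks per Mb of the autosomal arms was 0.33 and 0.28 in HIRA mutants at 0.5-1.5 h, against 0.19 and 0.07 in their wild type. At 2-3 h the ratio was 0.14 and 0.21 in HIRA mutants, against -0.32 and -0.33 in their wild type. In dPCIF1 mutants it was -0.67 and -0.71, against -0.61 and -0.62 in their wild type. Thus X was richer in peaks than the autosomes in all 6 libraries made of HIRA mutants or of their early wild type, and poorer in the other 6.

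The groups did not overlap in any of these contrasts. The difference of mean log2 ratios was 0.17 for HIRA at 0.5-1.5 h, with a pooled SD between replicates of 0.06. It was 0.50 for HIRA at 2-3 h, with a pooled SD of 0.04, and -0.08 for dPCIF1, with a pooled SD of 0.02 (exact permutation test, two-sided, p = 0.33 each, also after adjustment over 5 contrasts). The HIRA difference at 2-3 h exceeded that at 0.5-1.5 h by 0.32 (exact permutation test over 36 rearrangements of the labels within the stages, p = 0.333). With so few libraries this test could not pass 0.05 either. Under the same contrasts the ratio of each autosomal arm to the other 3 moved by -0.06 to 0.05.

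The control libraries differed from each other by as much. The X ratio was lower in wild type at 2-3 h than in wild type at 0.5-1.5 h by a log2 difference of -0.46, with a pooled SD of 0.06. It was lower by -0.74 in wild type for dPCIF1 than in wild type for HIRA of the same age, also with a pooled SD of 0.06. No groups overlapped (exact permutation p = 0.33 each), and the autosomal arms moved by -0.05 to 0.08. The difference between the wild-type sets was larger than any difference between a mutant and its own control, and when each early mutant was set against the wild type of the other one the HIRA difference was 0.92 and the dPCIF1 difference -0.82. What separates the sets other than the mutant they were collected for is not given in the sources used here, so set and control cannot be told apart.

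**Figure D1:**
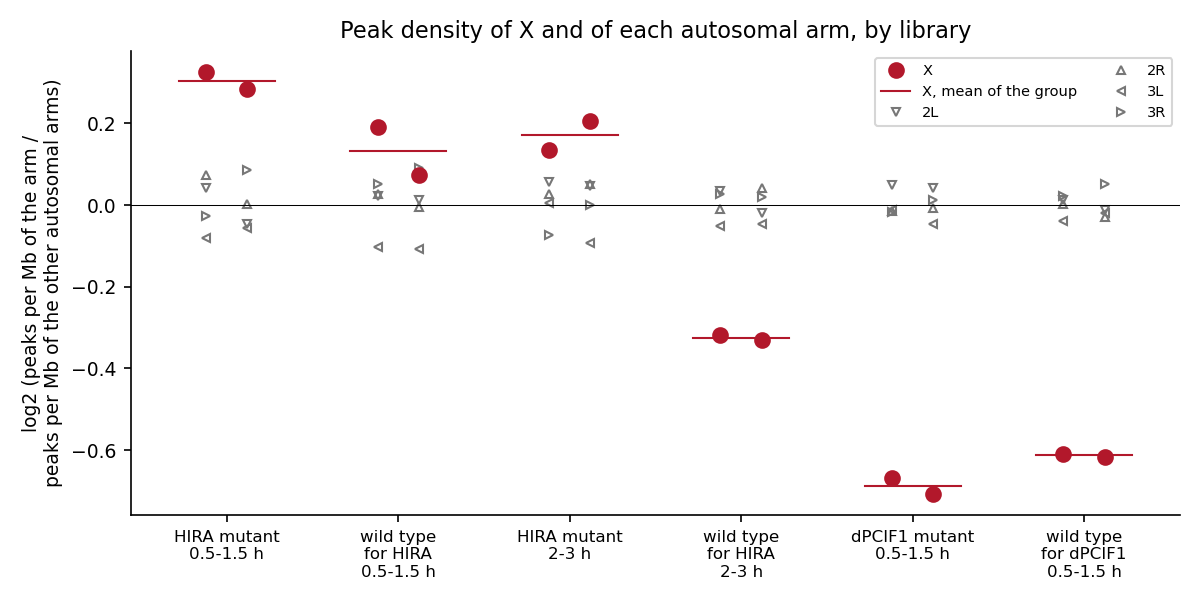
Log2 ratio of peaks per Mb of X (red points, 1 per library, with the group mean as a line) or of each autosomal arm (grey triangles) to peaks per Mb of the other autosomal arms, by group. X lies above 0 in HIRA mutants at both ages and in their early wild type, near -0.32 in wild type for HIRA at 2-3 h and below -0.6 in the dPCIF1 mutants and their wild type, while autosomal arms stay near 0.

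Promoter and distal peaks of X did not contribute alike. For peaks farther than 1 kb from every start site, the log2 ratio of X to autosomes was 0.57 and 0.43 in HIRA mutants at 0.5-1.5 h, against 0.14 and 0.00087 in their wild type. For promoter peaks it was 0.02 and 0.10 in these mutants, against 0.23 and 0.13 in their wild type. The contrast was thus 0.43 for distal peaks and -0.12 for promoter peaks, of opposite sign.

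At 2-3 h, the distal ratio was 0.18 and 0.32 in HIRA mutants, against -0.50 and -0.51 in their wild type, a difference of 0.75. The promoter ratio was 0.09 and 0.08 in HIRA mutants, against -0.16 and -0.19 in their wild type, a difference of 0.26. Both kinds of peak moved the same way at this age, the distal ones further. In dPCIF1 mutants the difference was -0.15 for distal and -0.05 for promoter peaks, and between the wild-type sets -0.98 and -0.55 (exact permutation p = 0.33 each, no overlap). These splits were chosen after seeing the data.

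The same comparison was made along the chromosome, in 24 bins of 1 Mb, the last of 0.54 Mb. For each library the X peaks of a bin were divided by the library's autosomal peaks. In 23 of the 24 bins both HIRA mutant libraries at 2-3 h lay above both wild-type libraries, and no bin went the other way. The log2 ratio of the bins was 0.14 to 1.07, with a median of 0.52. The bins nearest to 0 were the 3 at the tip of the chromosome (0.14, 0.16 and 0.16).

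Between the wild-type sets, all 24 bins were lower in wild type for dPCIF1 (median -0.75), and 23 of 24 were lower at 2-3 h than at 0.5-1.5 h in wild type for HIRA (median -0.46). These 2 differences, like that of HIRA at 2-3 h, ran along the whole of X. The early contrasts were mixed. For HIRA at 0.5-1.5 h 12 bins lay above, 3 below and 9 overlapped, and for dPCIF1 4 lay above, 10 below and 10 overlapped.

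**Figure D2:**
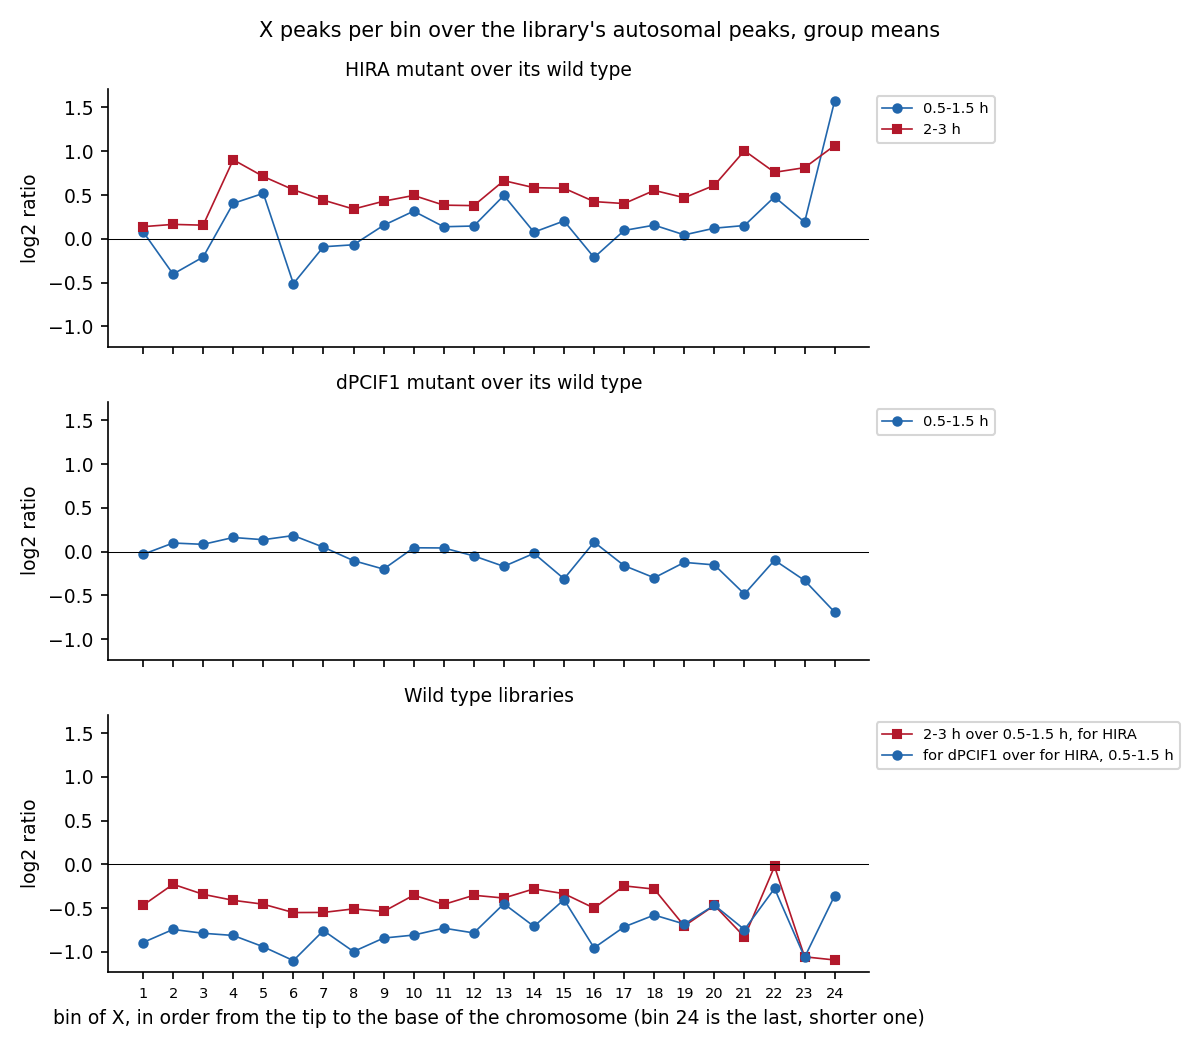
Log2 ratio between group means of X peaks per bin over the library's autosomal peaks, in bins of 1 Mb from the tip (bin 1) to the base of X (bin 24, 0.54 Mb). HIRA mutants at 2-3 h lie above 0 in all 24 bins, both wild-type comparisons lie below 0 in all 24, and HIRA mutants at 0.5-1.5 h reach 1.58 in the last bin.

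The base of X stood apart. The last bin held 51 members, of which 31.4% were promoter regions, against 56.8% in the other bins, and 15 protein-coding genes. In HIRA mutants at 0.5-1.5 h, 62.7% and 54.9% of these 51 members had a peak, against 54.9% and 58.8% in their wild type. Of the 1629 other members, 14.9% and 23.2% had a peak in these mutants, against 47.0% and 49.9% in their wild type. The lower number of X peaks in the early HIRA mutants was therefore not seen at the base of the chromosome. In HIRA mutants at 2-3 h 88.2% and 80.4% of the last-bin members had a peak, against 58.8% and 52.9% in their wild type. In dPCIF1 mutants 62.7% and 60.8% had one, against 70.6% and 74.5% in their wild type, so that there the direction was opposite to that of the other members, at 59.4% and 64.5% in dPCIF1 mutants against 47.8% and 48.6% in their wild type. The GAF letters were in 3.92% of last-bin members and 15.9% of the others. Without this bin the HIRA difference at 0.5-1.5 h was 0.09 instead of 0.17, that at 2-3 h was 0.48, and that of dPCIF1 was -0.05.

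Among the 23 bins of a full 1 Mb, the most members were found at 2-3 Mb (107 members), 19-20 Mb (93) and 0-1 Mb (84) and the fewest at 21-22 Mb (27), 22-23 Mb (36) and 14-15 Mb (41). The last bin, of 0.54 Mb, held 51. The longest stretch with no member ran over 628478 bp, at chrX:21630804-22259281. Neighbouring members had their midpoints a median of 6107 bp apart.

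A second view is the share of members that had a peak in each library, beside autosomal regions weighted to the same widths. In HIRA mutants at 0.5-1.5 h, 16.4% and 24.2% of X members and 10.8% and 16.8% of like-width autosomal regions had a peak. In their wild type the shares were 47.3% and 50.2% of X members and 33.9% and 38.6% of autosomal regions. At 2-3 h they were 77.4% and 67.4% on X and 64.5% and 49.6% on autosomes in HIRA mutants. In their wild type they were 76.0% and 72.1% on X and 75.7% and 71.2% on autosomes. Members on X thus had peaks more often than autosomal regions in HIRA mutants of both ages and in early wild type, and about as often in wild type at 2-3 h.

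In dPCIF1 mutants 59.5% and 64.3% of X members and 71.8% and 76.3% of autosomal regions had a peak. In their wild type 48.5% and 49.4% of X members and 54.0% and 55.7% of autosomal regions had one. X therefore lay below the autosomes in this set.

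The X share minus the autosomal share was 6.46 ± 1.28 percentage points in HIRA mutants at 0.5-1.5 h and 12.5 ± 1.23 in their wild type (SD, n = 2 each), a difference of -6.02 points. It was 15.4 ± 3.51 points in HIRA mutants at 2-3 h and 0.61 ± 0.49 in their wild type, a difference of 14.8 points. It was -12.1 ± 0.18 points in dPCIF1 mutants and -5.89 ± 0.53 in their wild type, a difference of -6.22 points (exact permutation p = 0.33 for each of the 3, no overlap). In early HIRA mutants this difference was negative while the log2 density ratio was positive. When only the widest peaks were kept, equally many per library, the early HIRA presence difference was 0.28 points, and against the wild type for dPCIF1 it was 12.3 points. Over the 12 libraries X exceeded the autosomes by 2.82 ± 10.2 points (SD), in 8 of 12 libraries (exact sign-flip permutation test, p = 0.325).

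**Figure D3:**
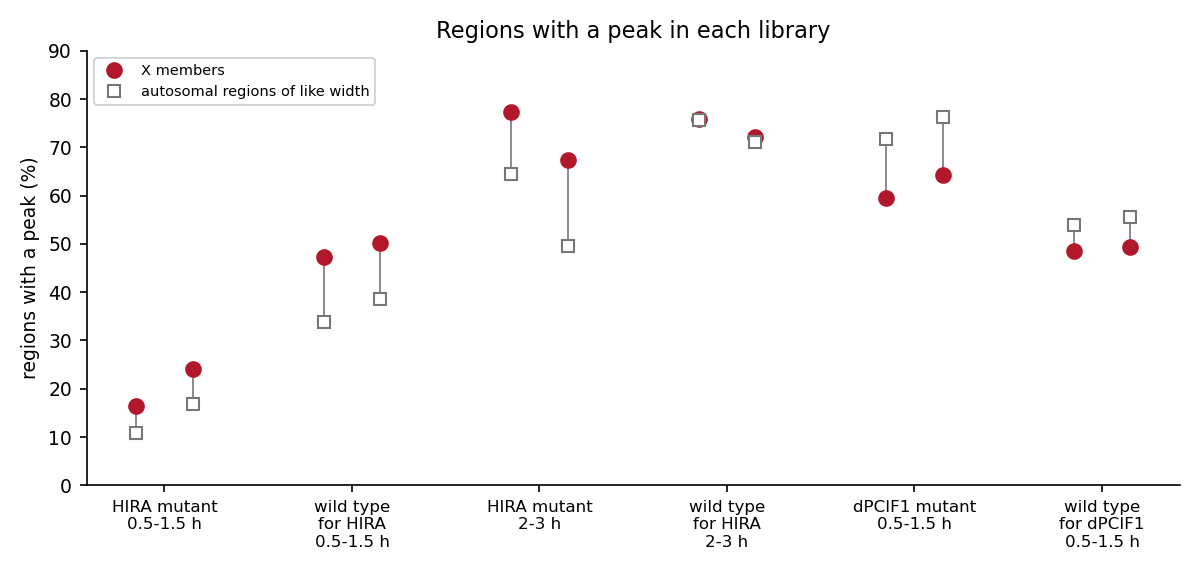
Share of regions with a peak in each library for X members (red points) and for autosomal regions weighted to the same widths (open squares), by group. X lies above the autosomes in HIRA mutants of both ages and in early wild type for HIRA, level with them in wild type for HIRA at 2-3 h, and below them in dPCIF1 mutants and their wild type.

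Single members followed the same lines. Of the 629 members with a peak in both early wild-type libraries for HIRA, 295 had none in either HIRA mutant library at 0.5-1.5 h, that is 46.9% (95% Wilson interval 43.0 to 50.8%), against 50.3% of autosomal regions of like width and 47.6% of all regions. Of the 629, 156 had a peak in both mutant libraries. In the other direction, 23 of 191 members with a peak in both mutant libraries had none in their wild type (12.04%), against 7.58% of like-width autosomal regions and a background of 6.55%. The share absent on X was near the background. With wild-type replicate 1 left out the absent members numbered 466, and with HIRA mutant replicate 1 left out those found in the mutants and not in this wild type numbered 65. With 1505 widest peaks from each library, 62 of 199 members were absent (31.2%), against 27.0% on the autosomes.

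Promoter members were absent from early HIRA mutants in 208 of 387 cases (53.7%), against 50.8% of autosomal promoter regions. For intronic members the share was 38.7%, against 40.5% on the autosomes, for intergenic members 32.7%, against 45.6%, and for exonic members 29.7%, against 50.7%. The promoter and intronic shares of X were thus near those of the autosomes, which by place were not weighted to width. The widest was a promoter region of 2348 bp at alpha-Man-Ia, a mannosidase gene of glycoprotein processing, with no peak in either early HIRA mutant library and peaks of 740 and 600 bp in their wild type. CoRest, a corepressor of transcription, had no peak in these mutants and peaks of 511 and 388 bp in their wild type. The promoter regions at CG33932, Hap40 and Ankle2 followed, with wild-type peaks of 269 to 765 bp. At all 5 both HIRA mutant libraries at 2-3 h had peaks, of 353 to 695 bp.

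Of the 23 members with a peak in both early HIRA mutant libraries and in neither of their wild type, several of which had peaks in other groups, the widest was an exonic region of 1386 bp whose nearest start site is that of ec, with peaks of 281 and 369 bp in those mutants and of 577 and 586 bp in wild type for dPCIF1. The next was the promoter region of Gas8, with peaks of 329 and 383 bp in HIRA mutants at 0.5-1.5 h and of 1082 and 548 bp in HIRA mutants at 2-3 h. It had none in any of the other 8 libraries. Regions at amn, which encodes a neuropeptide, at CG13000 and at boi, a Hedgehog co-receptor gene, completed the 5.

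At 2-3 h, 196 of 1134 members with a peak in both wild-type libraries had none in either HIRA mutant library (17.3%, interval 15.2 to 19.6%), against 22.7% of like-width autosomal regions and a background of 21.0%. Of 1079 members with a peak in both HIRA mutant libraries, 220 had none in their wild type (20.4%, interval 18.1 to 22.9%), against 11.3% of like-width autosomal regions and a background of 11.3%. In the 4 autosomal arms this last share was 7.55 to 11.5%. At this age X members were therefore more often present in the mutants and not in their wild type, and less often absent from them, than regions of the autosomal arms. Leaving out each library in turn, the count of members present in the mutants and not in their wild type was 229 to 304, and the count absent reached 359 without mutant replicate 1. With 7122 widest peaks from each library, 25.8% of X members and 16.6% of autosomal regions were present in the mutants and not in their wild type.

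This held in each of the 4 kinds of place, where the autosomal shares were not weighted to width. Over all places the autosomal share was 9.07% without weighting, against 11.3% with it. Members present in HIRA mutants at 2-3 h and in neither wild-type library made up 14.3% of promoter members on X and 6.41% of promoter regions on the autosomes. Among exonic regions they were 39 of 130 on X and 14.5% on the autosomes. The shares were 22.4% and 10.0% for intronic and 34.0% and 13.4% for intergenic regions. The widest were a region of 1308 bp at Gbeta13F, a G protein subunit gene, with peaks of 709 and 465 bp in HIRA mutants at 2-3 h and in no other library, and an intergenic region of 1217 bp near CG11106. An intronic region nearest to mamo, an exonic region nearest to eIF4H1, which encodes a translation initiation factor, and the Gas8 promoter region followed.

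Among members absent from HIRA mutants at 2-3 h, all of the 5 widest were promoter regions. They lay at Act5C, a cytoplasmic actin gene, with wild-type peaks of 315 and 205 bp, at Pp4-19C, a protein phosphatase gene, with 1137 and 391 bp, at CG4313, with 649 and 1173 bp, at CG2186, with 927 and 1067 bp, and at sgg, the kinase gene of Wnt signalling, with 983 and 356 bp. Promoter members were absent in 21.5% of cases, against 21.8% of autosomal promoter regions. The share was 8.78% of intronic members, against 19.3% on the autosomes, 11.0% of intergenic members, against 19.6%, and 15.8% of exonic members, against 29.2%. It was thus near that of the autosomes at promoters and lower on X in the 3 distal kinds of place. The autosomal shares by place were not weighted to width here either.

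For dPCIF1, 63 of 682 members with a peak in both wild-type libraries had none in either mutant library (9.24%), against 10.1% of like-width autosomal regions and a background of 9.88%. Of 927 members with a peak in both dPCIF1 mutant libraries, 195 had none in their wild type (21.0%, interval 18.5 to 23.8%), against 26.2% of like-width autosomal regions and a background of 25.3%. Peaks found in the mutants and not in their wild type were thus rarer on X than on the autosomes. With 7534 widest peaks from each library, 115 X members were absent and 93 were found in the mutants and not in their wild type (14.3%, against 18.0% on the autosomes), and without mutant replicate 2 the absent members numbered 108. The widest were at Tao, a kinase gene, with 878 and 688 bp in dPCIF1 mutants, near CG11106 with 541 and 206 bp, and at ATbp, CG8173 and CG4593 with 298 to 656 bp. The widest absent ones were a region of 1628 bp inside the Sxl gene, without a peak in dPCIF1 mutants and with peaks of 286 and 260 bp in their wild type, and regions at Flacc, a component of the RNA methylation complex, at br, an ecdysone-response gene, near CG17159 and at Sec22.

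Between the controls, 8 of 629 members of early wild type for HIRA were absent at 2-3 h (1.27%, background 0.853%), and 249 of 1134 members present at 2-3 h were absent at 0.5-1.5 h (22.0%, against 36.7% of like-width autosomal regions and a background of 33.6%). Leaving out each library in turn, these counts were 20 to 27 and 301 to 411, and when 4707 widest peaks were kept per library they were 113 (19.3%, against 18.4% on the autosomes) and 40 (7.81%, against 16.2%). The share found at 2-3 h and not at 0.5-1.5 h was lower on X than on the autosomes with all peaks and with the widest. Of the 8, those at eIF4H1, Usp16-45 and Bx were the widest. Of the members of early wild type for HIRA, 80 (12.7%) were absent from wild type for dPCIF1, against 7.82% of like-width autosomal regions and a background of 8.05%. In the other direction, 110 of 682 (16.1%) were present in wild type for dPCIF1 and not in early wild type for HIRA, against 30.5% and a background of 28.5%. One of these 110 was the promoter region of fd19B, a forkhead gene, with peaks of 847 and 1008 bp in wild type for dPCIF1 and in no other library. Leaving out each library in turn, the 80 became 110 to 197 and the 110 became 154 to 168. With 4707 widest peaks per library they were 150 (25.7%, against 17.5% on the autosomes) and 37 (9.0%, against 20.3%).

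The promoter share of the members with a peak followed the mutants. It was 45.5% and 48.5% in HIRA mutants at 0.5-1.5 h, against 60.3% and 60.9% in their wild type, a difference of -13.6 points. At 2-3 h it was 52.8% and 50.0% in HIRA mutants, against 59.7% and 60.7% in their wild type, a difference of -8.78 points. In dPCIF1 mutants it was 65.8% and 65.1%, against 61.8% and 62.7% in their wild type, a difference of 3.24 points (exact permutation p = 0.33 each, no overlap). The like-width autosomal regions moved in the same directions. Their promoter share was 51.7% and 52.5% in HIRA mutants at 0.5-1.5 h, against 58.0% and 57.1% in their wild type. It was 51.0% and 50.8% in HIRA mutants at 2-3 h, against 54.0% and 55.3%, and 56.7% and 56.1% in dPCIF1 mutants, against 55.0% and 54.7%. Promoter regions thus made up less of the accessible regions in HIRA mutants of both ages, and more in dPCIF1 mutants, both on X and on the autosomes. Over the 12 libraries the promoter share was 57.8% on X and 54.4% in like-width autosomal regions, higher on X in 9 of 12 libraries (exact sign-flip permutation test, adjusted p = 0.0415). In the same permutation test the call was lost when any of 9 libraries was left out (highest adjusted p = 0.0801, for either dPCIF1 mutant library), with no width weighting (adjusted p = 0.117), and when only the widest peaks were kept, equally many per library (adjusted p = 0.297). Single autosomal arms set against the other 3 differed in promoter share by 2.86 points on 2R (0.85 to 4.02 over the libraries) and -2.21 points on 3R (-3.41 to -1.17). The difference of X was 3.42 points on average (-6.24 to 9.07).

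X members carried the GAF letters more often than autosomal regions in every library. Of members with a peak, 17.9% held GAGAGAG on average over the 12 libraries, against 11.9% of like-width autosomal regions, with a difference of 2.87 to 8.55 points. DREF letters were in 5.61% on X and 3.05% on the autosomes, and M1BP letters in 2.01% and 0.943%. Zelda letters were rarer on X in all 12 libraries, at 7.39% against 8.31%. Each of the 4 differences had an adjusted p of 0.00057 in the exact sign-flip permutation test, the smallest possible with 12 libraries and 7 shares, and since all libraries share 1 genome sequence this p covers the spread between libraries only. The Zelda call was lost when only the widest peaks were kept, equally many per library (-0.21 points, adjusted p = 0.51 in the same permutation test). Single autosomal arms set against the other 3 differed as much in Zelda letters, by -0.96 points on 3R and 1.04 points on 2L. The Zelda difference of X, -0.92 points on average, was within that range.

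Repeats and the sequence of X itself moved with these shares. GAGAGAGA was in 11.7% of members with a peak and 6.94% of autosomal regions, and CACACACA in 19.0% and 13.2% (12 of 12 libraries, adjusted p = 0.00057 each, exact sign-flip permutation test). Of all windows of 200 bp along the chromosomes, 2.93% on X and 2.33% on the autosomes held the GAF letters, and 5.78% and 3.75% held CACACACA. The ratio of X to autosomes was thus 1.66 for GAF in the members and 1.26 in all windows, while for CACACACA it was 1.47 and 1.54. For DREF it was 1.81 in the members and 1.19 in windows, for M1BP 2.02 and 1.32, and for Zelda 0.92 and 0.90. At start sites the DREF letters were in 17.8% on X and 11.6% on the autosomes, and the M1BP letters in 4.34% and 4.43%. The GAF letters were in 5.34% and 4.55% of start sites, and the Zelda letters in 1.01% and 1.06%. The part of repeats and of background sequence in the motif shares was not tested further. Single autosomal arms also differed from the other 3, the GAF share by 3.38 points on 3R and -3.42 points on 2L. The GAF difference of X, 6.06 points, was thus larger on average than that of any single arm. Over the libraries the ranges overlapped, at 2.87 to 8.55 points on X and 2.26 to 7.14 points on 3R.

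**Figure D4:**
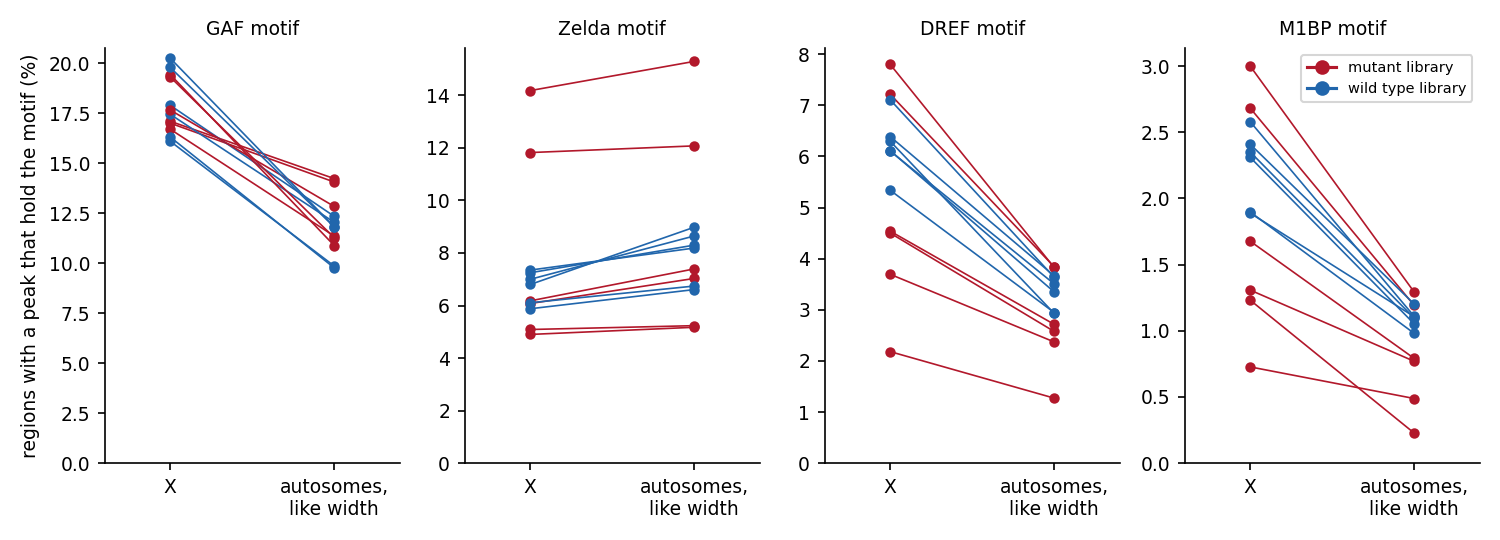
Share of regions with a peak that hold the GAF, Zelda, DREF or M1BP letters within 100 bp of the median peak midpoint, on X and in autosomal regions of like width, with a line for each of the 12 libraries. The lines for GAF, DREF and M1BP fall from X to the autosomes and those for Zelda climb. The pair of highest Zelda lines are the HIRA mutants at 0.5-1.5 h.

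Between conditions, the Zelda letters set the early HIRA mutants apart. They were in 14.2% and 11.8% of X members with a peak in HIRA mutants at 0.5-1.5 h, against 6.80% and 7.0% in their wild type, and in 15.3% and 12.1% of like-width autosomal regions in those mutants, against 8.98% and 8.65% in their wild type. Members with Zelda letters thus made up more of what remained on X, as on the autosomes. Only 5 of the 295 members absent from these mutants held the Zelda letters (1.69%), against 12.3% of the members that were not absent. For GAF these shares were 18.3% and 19.5%. Over all 1680 members the Zelda letters were in 5.42% and the GAF letters in 15.5%. Shares among absent autosomal regions were not counted. HIRA mutants at 0.5-1.5 h had 1505 and 2399 peaks, against 4707 and 5449 in their wild type. The motif contrasts between groups were not repeated with equal numbers of peaks. In dPCIF1 mutants the Zelda letters were in 4.90% and 5.09% of X members with a peak, against 7.25% and 7.35% in their wild type, and in 5.17% and 5.23% of autosomal regions in those mutants, against 8.30% and 8.19%. DREF letters were in 2.18% and 3.69% in HIRA mutants at 0.5-1.5 h, against 6.30% and 5.34% in their wild type, and in 4.54% and 4.50% at 2-3 h, against 6.11% and 6.11% (exact permutation p = 0.33 for each X contrast named, adjusted p = 0.37 over 20 tests). On the autosomes the DREF share was 1.27% and 2.37% in HIRA mutants at 0.5-1.5 h, against 2.93% and 2.95% in their wild type, and 2.72% and 2.58% at 2-3 h, against 3.35% and 3.51%. The Zelda and DREF shares named here moved the same way on X and on the autosomes. The GAF share on X differed by -0.62 points in HIRA mutants at 0.5-1.5 h, 0.98 points at 2-3 h and -0.65 points in dPCIF1 mutants. On the autosomes it was 14.22% and 14.05% in early HIRA mutants, against 12.34% and 12.04% in their wild type. It was also higher there in HIRA mutants at 2-3 h, and lower in dPCIF1 mutants. X and autosomes thus moved in opposite directions in GAF share in early HIRA mutants.

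Genes of X are given by their roles. A gene counted as having a promoter peak when a peak overlapped 1 kb either side of a start site. Of 2196 protein-coding genes on X, 59 had one in all 12 libraries and 937 in none. The share of X genes with one was 5.28% and 9.02% in HIRA mutants at 0.5-1.5 h, against 24.3% and 26.5% in their wild type. It was 36.2% and 26.2% in HIRA mutants at 2-3 h, against 40.6% and 38.0%, and 33.5% and 36.0% in dPCIF1 mutants, against 24.4% and 25.7%. The gene lists below are to be read beside these shares.

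Hira, the gene targeted in the HIRA mutants, lies at chrX:7722119-7725917. A promoter peak was found in 5 libraries, namely replicate 1 of HIRA mutants at 2-3 h (238 bp), replicate 1 of their wild type (397 bp), replicate 2 of dPCIF1 mutants (201 bp) and both libraries of wild type for dPCIF1 (229 and 213 bp). None was found in either group of HIRA libraries at 0.5-1.5 h. Peak lists hold no reads over the deleted bases, so the presence of a peak checks neither the allele nor the label.

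The genes of the sex signal stood out by their constancy. All 5 (sisA, a bZIP activator, sc, a bHLH activator, upd1, a JAK/STAT ligand, run, a Runt-domain factor, and their target Sxl) had a promoter peak in all 12 libraries, among them HIRA mutant replicate 1 at 0.5-1.5 h, where 116 of the 2196 X genes had one. The widest promoter peak at sisA was 775 and 1167 bp in HIRA mutants at 0.5-1.5 h, against 693 and 1226 bp in their wild type. At Sxl it was 300 and 279 bp in these mutants, against 295 and 299 bp in their wild type. At 2-3 h the widest peak at Sxl was 864 and 838 bp in HIRA mutants, against 849 and 346 bp in their wild type. At sc it was 409 and 318 bp in early HIRA mutants, against 497 and 398 bp. Widths at sisA, sc and Sxl overlapped between early HIRA mutants and controls. Peaks at upd1 (672 and 488 bp, against 769 and 755 bp) and run (373 and 535 bp, against 746 and 681 bp) were narrower in these mutants without overlap. In dPCIF1 mutants the sisA peak was 971 and 566 bp, against 1534 and 1524 bp in their wild type. The sc peak was 534 and 488 bp, against 1334 and 1214 bp, and the upd1 peak 669 and 704 bp, against 764 and 778 bp. These were narrower in the dPCIF1 mutants without overlap. The Sxl peak was wider in them without overlap, at 939 and 1497 bp against 800 and 578 bp, and widths at run overlapped. Widths were not tested.

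Of 20 axis and segmentation genes, 8 and 13 had a promoter peak in HIRA mutants at 0.5-1.5 h, against 16 and 17 in their wild type. In the other 8 libraries 17 to 19 had one. The 7 with one in all 12 libraries were btd, a head gap gene, oc, which encodes the homeodomain factor Otd, run, the zinc-finger gene disco, the proneural genes ac and l(1)sc, and fog, whose ligand drives cell shape change in gastrulation. At btd the peak was 362 and 553 bp in early HIRA mutants, against 625 and 609 bp in their wild type. The gap gene gt had none and 757 bp in early HIRA mutants, against 1121 and 1128 bp. N, the Notch receptor gene, arm, which encodes β-catenin, disco-r and ct had none in either early HIRA mutant library and a peak in both of their wild type, 562 and 581 bp at N. At 2-3 h N had 661 and 605 bp in HIRA mutants, against 652 and 658 bp in their wild type. B-H2, a homeobox gene of later development, had none in any HIRA or wild type for HIRA library at 0.5-1.5 h and one in the other 8 libraries, at 694 and 756 bp in HIRA mutants at 2-3 h against 353 and 364 bp in their wild type.

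Of 6 cellularization and early zygotic genes on X, 4 and 5 had a promoter peak in HIRA mutants at 0.5-1.5 h, against 6 and 6 in their wild type. At nullo, which acts in forming the cell membranes of the blastoderm, the peak was 1645 and 1587 bp in HIRA mutants at 2-3 h, against 662 and 656 bp in their wild type. In dPCIF1 mutants nullo had no peak in replicate 1 and 310 bp in replicate 2, against 1058 and 1155 bp in their wild type. The dob peak, present in both early wild-type libraries for HIRA (414 and 272 bp), was found in neither early HIRA mutant library.

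Of 17 genes of chromatin and pioneer factors, 3 and 3 had a promoter peak in HIRA mutants at 0.5-1.5 h, against 9 and 9 in their wild type. At 2-3 h 12 and 9 had one in HIRA mutants, against 13 and 12. In dPCIF1 mutants 11 and 12 had one, against 13 and 10 in their wild type. Only nej, the gene of the acetyltransferase CBP, had one in all 12. The Zelda gene zld had none in early HIRA mutants and 313 and 304 bp in their wild type. The roX1 gene, whose RNA takes part in dosage compensation of the male X, had a promoter peak in 11 libraries, all but HIRA mutant replicate 1 at 0.5-1.5 h. It was 405 bp wide in replicate 2 of those mutants, against 448 and 1244 bp in their wild type. The roX2 gene, the acetyltransferase gene mof of the same complex and dhd had none in any library.

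Of 15 ribosomal protein genes, 2 and 2 had a promoter peak in HIRA mutants at 0.5-1.5 h, against 6 and 8 in their wild type. At 2-3 h 8 and 5 had one in HIRA mutants, against 12 and 12 in their wild type. None had one in all 12 libraries. RpL17 had a peak in all 8 HIRA and wild-type-for-HIRA libraries, among them early HIRA mutants with 380 and 473 bp against 261 and 337 bp, and in none of the 4 dPCIF1 and wild-type-for-dPCIF1 libraries. RpS14b lies next to Ubr3, and both were counted by the same peaks.

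Of 16 adult or late tissue genes, 10 had no promoter peak in any library, among them the yolk protein genes Yp1 and Yp3 and the chorion gene Cp38. The white gene w was another of the 10. The wild-type strain named in the study's methods is a white mutant, so the lack of a peak at w is not read as a silent gene. The number with one was 0 and 1 in HIRA mutants at 0.5-1.5 h, against 0 and 1 in their wild type, and 4 and 1 in HIRA mutants at 2-3 h, against 3 and 2. The chorion gene Cp36 had a peak in replicate 2 of HIRA mutants at 0.5-1.5 h (349 bp) and in both HIRA mutant libraries at 2-3 h (441 and 350 bp), and in none of the other 9.

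**Figure D5:**
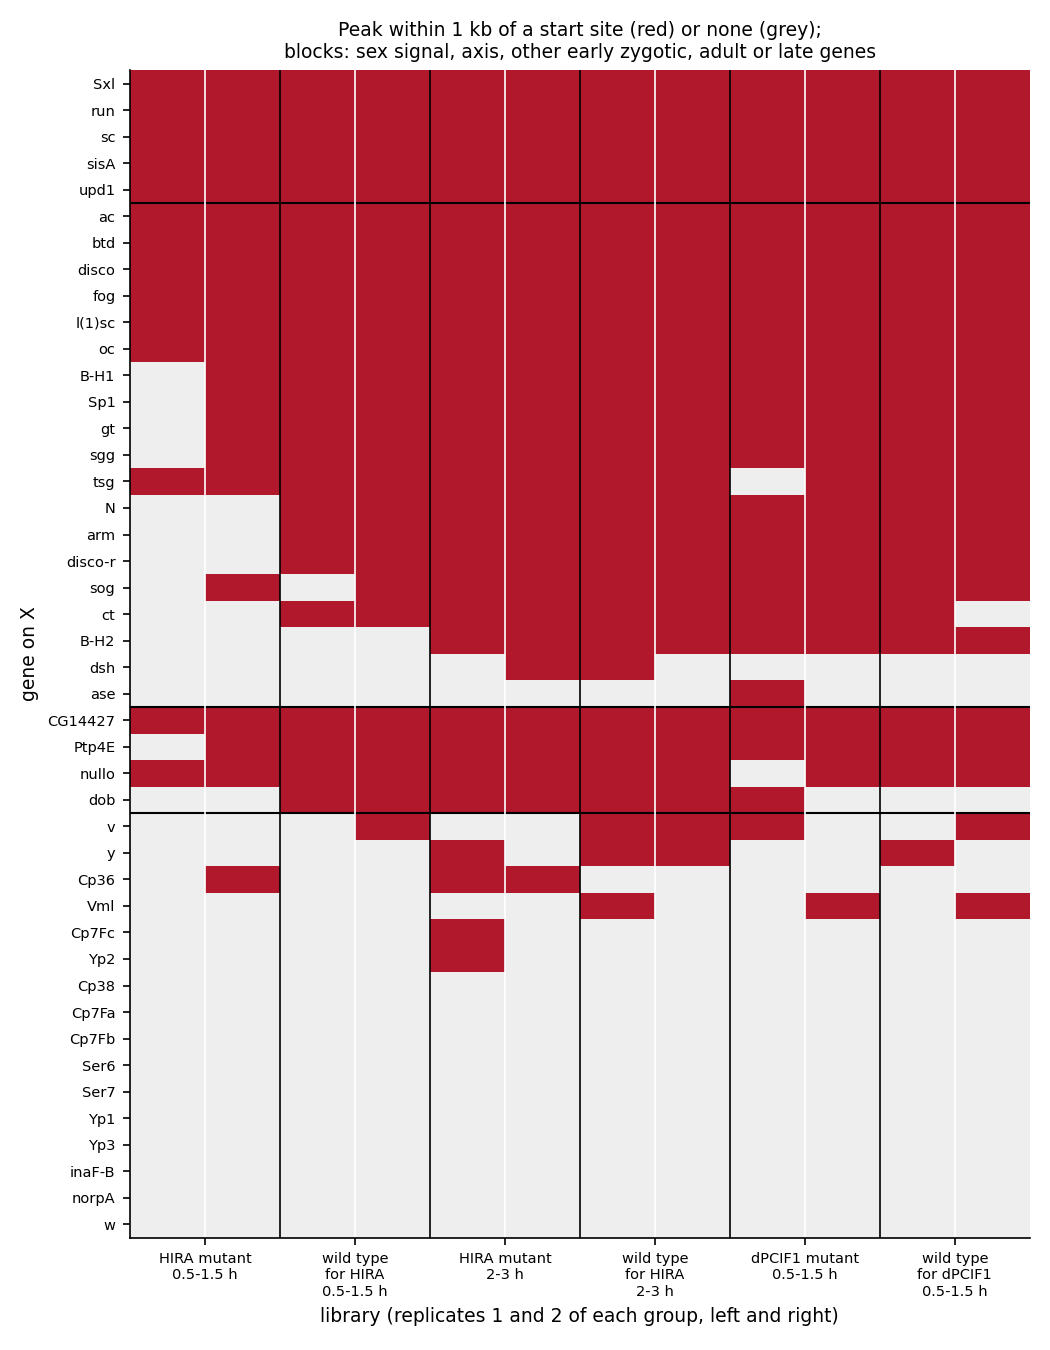
Promoter peak (red) or none (grey) within 1 kb of a start site for the X genes of 4 of the lists (from top to bottom) in each library (columns, replicates 1 and 2 of each group). The 5 sex signal genes are red throughout, most axis genes are red outside the HIRA mutants at 0.5-1.5 h, and most adult or late genes are grey.

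The widest members with a peak in all 12 libraries lay at CG43736 (3014 bp merged), at CG3857 and Hr4, a nuclear receptor gene (2738 bp), in an intron whose nearest start site is that of CG15343 (2146 bp), at CG10555 (2136 bp) and at CG3638 (1854 bp). At CG43736 the widest single peak was 390 and 228 bp in HIRA mutants at 0.5-1.5 h, against 924 and 778 bp in their wild type, and 1049 and 2711 bp in HIRA mutants at 2-3 h, against 694 and 1471 bp. The region near CG15343 was different in kind. Its peak was 1975 and 1487 bp in HIRA mutants at 0.5-1.5 h, against 2048 and 2028 bp in their wild type, and 2070 to 2141 bp in the other 8 libraries, and it held none of the 6 searched motifs.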

How the data were processed

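ATAC-seq was made from pools of whole embryos, in 6 groups of 2 libraries. Per the study's methods and the submitters' processing notes, reads were trimmed with Trimmomatic 0.39, mapped to dm6 with Bowtie2 2.2.5, filtered with SAMtools 1.18 and called as peaks in each library with MACS2 2.2.7.1, and deepTools 3.5.1 is also named. How the transposase offset was handled is not given in the sources used here. The authors deposited other values than counts, namely the position (chromosome, start and end) of each peak, with no height, score or read number, so depth is unknown.

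Overlapping peaks of the 12 lists were merged with Python 3.11.15, numpy 2.4.6, scipy 1.17.1 and matplotlib 3.10.9. Genes and start sites came from Ensembl release 115 and sequence from the RefSeq dm6 genome. A region was a promoter region within 1 kb of a start site. Where like width is named, autosomal regions were weighted to the widths of the X members in 10 width classes. Shares by kind of place were not weighted. Motifs were searched in 200 bp around the median peak midpoint. Groups were compared by exact permutation, X and autosomes by exact sign flips over 12 libraries, both two-sided with Benjamini-Hochberg adjustment, and the steps were tested on simulated data. Wilson intervals cover counting error only.

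The genes named were those of the gene lists, with Hira first, and for each contrast the 5 widest members found in only 1 of the groups, the 5 widest found in all 12 libraries, and the 3 bins with the most and the fewest members. Members and lists were chosen with earlier results of these data known. The genes roX1, roX2 and e(y)1 were matched through RefSeq synonyms, RpL37a was the same gene as RpL37-1, and CG8960, CG15876, RpS28-like, Rh4 and ninaC were left out as not on X. At most 30 bases were printed where a motif lay in an untranslated exon. Alternatives were leaving out each library, equal numbers of widest peaks, other merging, overlap and promoter distances, no width weighting, chromosome 4 added, the other mutant's wild type, motifs anywhere in the region and a replicate block.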

Additional observations from a re-analysis of the deposited data

Results flagged for a closer look

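The difference between HIRA mutants and their wild type had opposite directions at the 2 ages in a pair of X measures. The share of X members with a peak, relative to like-width autosomal regions, differed by -6.02 points at 0.5-1.5 h and by 14.8 points at 2-3 h, with no overlap of the libraries at either age. The 2 effects were 20.8 points apart (exact permutation test over 36 arrangements, p = 0.0556). The early value was 12.3 points against the wild type for dPCIF1 and 0.28 points when only the widest peaks were kept, equally many per library, and the log2 density ratio of X differed by 0.17 and 0.50, in the same direction at both ages. Among X members with a peak, the share with the GAF letters differed by -0.62 points at 0.5-1.5 h. At 2-3 h it differed by 0.98 points, and the difference between these effects was not tested. In like-width autosomal regions the GAF share was higher in HIRA mutants at both ages. It was 14.22% and 14.05% at 0.5-1.5 h, against 12.34% and 12.04% in their wild type. At 2-3 h it was 11.35% and 12.83%, against 9.76% and 9.85%.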

How the results depend on the processing

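Depth is unknown, the number of peaks differed between libraries, and 2 libraries against 2 cannot pass 0.05, so stability here means direction only. The X density difference kept its direction in every contrast when each library was left out in turn (0.11 to 0.23 for HIRA at 0.5-1.5 h, 0.46 to 0.53 at 2-3 h, -0.10 to -0.06 for dPCIF1), and under all other alternatives run but 1. With promoter peaks alone, an alternative chosen after seeing the data like distal peaks alone, the last 0.54 Mb left out and covered length, it was -0.12 for HIRA at 0.5-1.5 h.

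When only the widest peaks were kept, equally many per library, the members absent numbered 62 for HIRA at 0.5-1.5 h, 107 at 2-3 h, 115 for dPCIF1, 113 for wild type at 2-3 h against 0.5-1.5 h and 150 between the wild-type sets. Those present only in the group named first numbered 48 for HIRA at 0.5-1.5 h, 93 for dPCIF1, 40 for the wild-type ages and 37 for the sets. The log2 difference in members with a peak was -0.056 for HIRA at 0.5-1.5 h, against -1.29 with all peaks. It was 0.22 for HIRA at 2-3 h, -0.024 for dPCIF1, -0.26 for the wild-type ages and -0.52 for the sets, against -0.04, 0.34, 0.60 and 0.01 with all peaks. The presence difference for HIRA at 0.5-1.5 h was 0.28 points, and 12.3 points against the wild type for dPCIF1. The promoter share difference between the wild-type ages was 3.87 points. Over the libraries, the Zelda difference was -0.21 points (adjusted p = 0.51, exact permutation test) and the promoter difference 1.55 points (adjusted p = 0.297), or 2.68 points with no width weighting (adjusted p = 0.117). Beyond the numbers of peaks used, the cause was not tested.

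With each library left out in turn, the members absent numbered 344 to 466 for HIRA at 0.5-1.5 h, 215 to 359 at 2-3 h, 78 to 108 for dPCIF1, 20 to 27 for the wild-type ages and 110 to 197 for the sets. Those present only in the group named first numbered 27 to 65 for HIRA at 0.5-1.5 h, 301 to 411 for the wild-type ages and 154 to 168 for the sets. A single library cannot remove a member as a pair can, so these counts grow by construction. The log2 difference in members with a peak was -0.13 to 0.064 for HIRA at 2-3 h and -0.036 to 0.050 for the sets, the promoter share difference -0.87 to 0.14 points for the wild-type ages, and the promoter difference over libraries 2.90 to 4.29 points.

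Replicate numbers did not pair the libraries: the deviations of same-numbered libraries correlated by -0.03 to 0.03 over 1680 members. With the replicate block the differences were the same, 0.17 for HIRA at 0.5-1.5 h among them, and the smallest possible exact permutation p was 0.5.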
